A study of Mus musculus with 17 samples.

Results

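The regulators described here are 8 genes of the NRF2, BACH1 and small MAF system, taken as a named set with earlier results of these data known. They are Nfe2l2, which encodes NRF2, Nfe2l1, which encodes NRF1, Keap1, Bach1, Bach2, Mafg, Mafk and Maff, 8 of the 31091 gene identifiers in the count table. All 8 were counted in every sample and tested in every comparison. Their transcripts were counted in 17 samples of dendritic cells sorted as cDC1s (XCR1+ CD8α+ SIRPα-) or cDC2s (SIRPα+ CD11b+ XCR1-). The cells came from spleens of 8-week-old female C57BL/6JRj mice that carried B16 tumors making FLT3L, a growth factor that expands cDCs, and spleens of at least 2 mice were pooled per experiment. CD11c+ cells were kept for 6 h with the whole medium of TC-1 cells, a mouse lung epithelial tumor line, before cDC1s and cDC2s were sorted. The study's protocol for this culture adds GM-CSF to help CD11c+ cells survive. Uptake of debris was not labelled for these samples, so cells were sorted regardless of it. WT medium came from unmodified TC-1 cells. BimS medium came from TC-1-iBimS cells, which make the BH3-only protein BimS under cumate and die by apoptosis. RIPK3 medium came from TC-1-iRIPK3 cells, which make a self-associating RIPK3 under cumate and die by necroptosis. Cumate was given for 24 h to all 3 lines, WT included. Each inducible line was grown from a single sorted cell and carries a repressor and a fluorescent reporter that WT cells lack, so the mode of death and the line cannot be told apart. Each of the 6 groups had 3 samples except cDC2s with RIPK3 medium, which had 2.

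NRF2 is a leucine zipper transcription factor that activates genes of glutathione synthesis, heme breakdown and detoxification. It binds antioxidant response elements only together with a small MAF protein (MAFG, MAFK or MAFF), and KEAP1 hands it to a ubiquitin ligase unless oxidants or electrophiles modify KEAP1. BACH1 and BACH2 pair with the same small MAF proteins at the same kind of element and repress, and heme releases BACH1 from DNA and leads to its breakdown. Small MAF proteins have no activation domain of their own, so pairs made of small MAFs alone repress. Much of the control of NRF2, NRF1 and BACH1 acts on protein stability, which RNA counts do not measure.

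The letters that NRF2 and BACH1 dimers are known to recognise were searched in front of the genes, to show where the regulators hold such a sequence themselves. In the 1000 bases before the start of the canonical transcript (GRCm39, GENCODE M39), TGACNNNGC occurred on either strand in 2 of the 8 regulators, against 29.9% of the 13467 protein-coding genes tested. In the 250 bases nearest the start it occurred in 1 of 8, against 10.7%. The shorter AP-1 type letters TGAGTCA, which read TGACTCA on the other strand and so can overlap TGACNNNGC, occurred in none of the 8 in the 1000 bases, against 14.3%. Of 24 textbook target genes of NRF2 and BACH1, 6 held TGACNNNGC within 1000 bases. The members with a match were Mafg and Nfe2l2, and 3 targets are printed beside them for comparison, each read in the direction that spells the letters, with the matched 9 bases in capitals.
Mafg: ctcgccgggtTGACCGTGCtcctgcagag
Nfe2l2: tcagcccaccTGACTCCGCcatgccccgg
Gclm: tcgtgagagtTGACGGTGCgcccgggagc
Slc7a11: aggaaggagaTGACAGGGCatattttttg
Prdx1: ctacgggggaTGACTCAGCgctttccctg
The Mafg stretch lies at chr11:120524577-120524605 on the plus strand, opposite to the gene, with its matched bases 213 to 221 before the start. It is upstream of every annotated Mafg transcript and inside an exon of Gm17586, a noncoding gene on the other strand. The Nfe2l2 stretch lies at chr2:75535229-75535257 on the minus strand, the strand of the gene, 254 to 262 bases before the start. It is upstream of every annotated Nfe2l2 transcript and inside an exon of the noncoding genes E030042O20Rik and Gm75256. The Gclm stretch is at chr3:122039062-122039090 (minus strand), the Slc7a11 stretch at chr3:50398915-50398943 (plus strand) and the Prdx1 stretch at chr4:116542653-116542681 (minus strand), where TGACNNNGC and TGAGTCA overlap. A match describes these letters only, and no binding was measured here.

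The depth was 16095159 to 21645289 counts per sample, with a median of 18986002, and the lowest count of any regulator in any sample was 251, for Bach2. The sorted cells carried their own markers. Summed over 8 cDC1 markers, the level was 1410 to 1740 CPM (counts scaled by library size with TMM factors) in cDC1s and 99.0 to 132 CPM in cDC2s, and summed over 6 cDC2 markers it was 2.11 to 4.02 CPM in cDC1s and 285 to 373 CPM in cDC2s. Single markers changed with debris. With RIPK3 medium 3 of 8 cDC1 markers were higher and 3 lower in cDC1s, and 1 of 6 cDC2 markers was higher and 3 lower in cDC2s. Within cDC1s, the lineage factor Irf8 fell by 0.82 (adjusted p = 4.09e-13) on the log2 scale with RIPK3 medium and Xcr1 rose by 0.57 (adjusted p = 5.67e-11), while Wdfy4, needed for cross-presentation, fell by 0.41 (adjusted p = 2.18e-06), which did not pass in the fit of all samples (adjusted p = 0.120). Named after their values were seen, Itgae fell by 0.84 (adjusted p = 6.92e-11) in cDC1s with RIPK3 medium, and in cDC2s Irf4 fell by 1.16 (adjusted p = 8.71e-07) with BimS and 1.52 (adjusted p = 2.42e-07) with RIPK3 medium and Clec10a by 0.98 (adjusted p = 0.000558) with RIPK3 medium. Other markers went up. In cDC1s Clec9a was at 230 to 253 CPM with WT and 276 to 295 CPM with RIPK3 medium, and Cd8a at 12.2 to 13.2 and 14.7 to 21.5 CPM. With BimS medium 1 cDC2 marker was higher and 1 lower in cDC2s. Summed markers of other cells stayed at or below 4.53 CPM for B cells, 2.87 CPM for T and NK cells, 20.6 CPM for plasmacytoid dendritic cells and 11.7 CPM for macrophages. Markers of adherent tumor cells (9 of 10 measured) summed to 18.5 to 39.3 CPM in cDC2s and 1.88 to 3.04 CPM in cDC1s. Cdh1 alone held 16.8 to 37.7 CPM of this in cDC2s, and the other 8 markers summed to 1.11 to 1.75 CPM in cDC2s and 1.83 to 2.78 CPM in cDC1s. In bulk samples, fewer cells of a type and less RNA per cell cannot be told apart. Nothing states that samples of a group came from separate cultures or mice, so p-values measure the spread between these samples, which may be technical.

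In cDC1s, debris of either kind went with higher levels of Mafg, Bach1, Maff, Keap1 and Mafk, while the samples of Nfe2l2 overlapped between all 3 media. With BimS medium 6 of the 8 regulators passed the test, 5 higher and Nfe2l1 lower, where 13.2% of all 19513 genes tested passed in either direction and 7.31% as higher. With RIPK3 medium 5 of 8 passed, all higher, where 16.5% of all genes passed and 8.34% as higher. In cDC2s, 4 of 8 were higher with BimS medium, where 7.01% of 19239 genes passed and 3.80% as higher. With RIPK3 medium 2 of 8 were higher in cDC2s, where 7.21% passed and 3.93% as higher. The median log2 fold change of the 8 was 0.43 and 0.34 in cDC1s and 0.26 and 0.29 in cDC2s with BimS and RIPK3 medium, beside medians of -0.02 to 0.00 over all genes tested. All 4 comparisons use the WT samples of their cell type, so they are not independent of each other. Taking the replicate number as a block brought the calls in cDC2s to 6 of 8 with either medium, 4 higher and 2 lower (Nfe2l1 and Mafk) with BimS medium and 5 higher and 1 lower (Mafk) with RIPK3 medium, but the share of all genes that passed also rose, to 21.3% with BimS medium and 21.4% with RIPK3 medium. Blocked values are given beside the genes concerned.

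**Figure D1:**
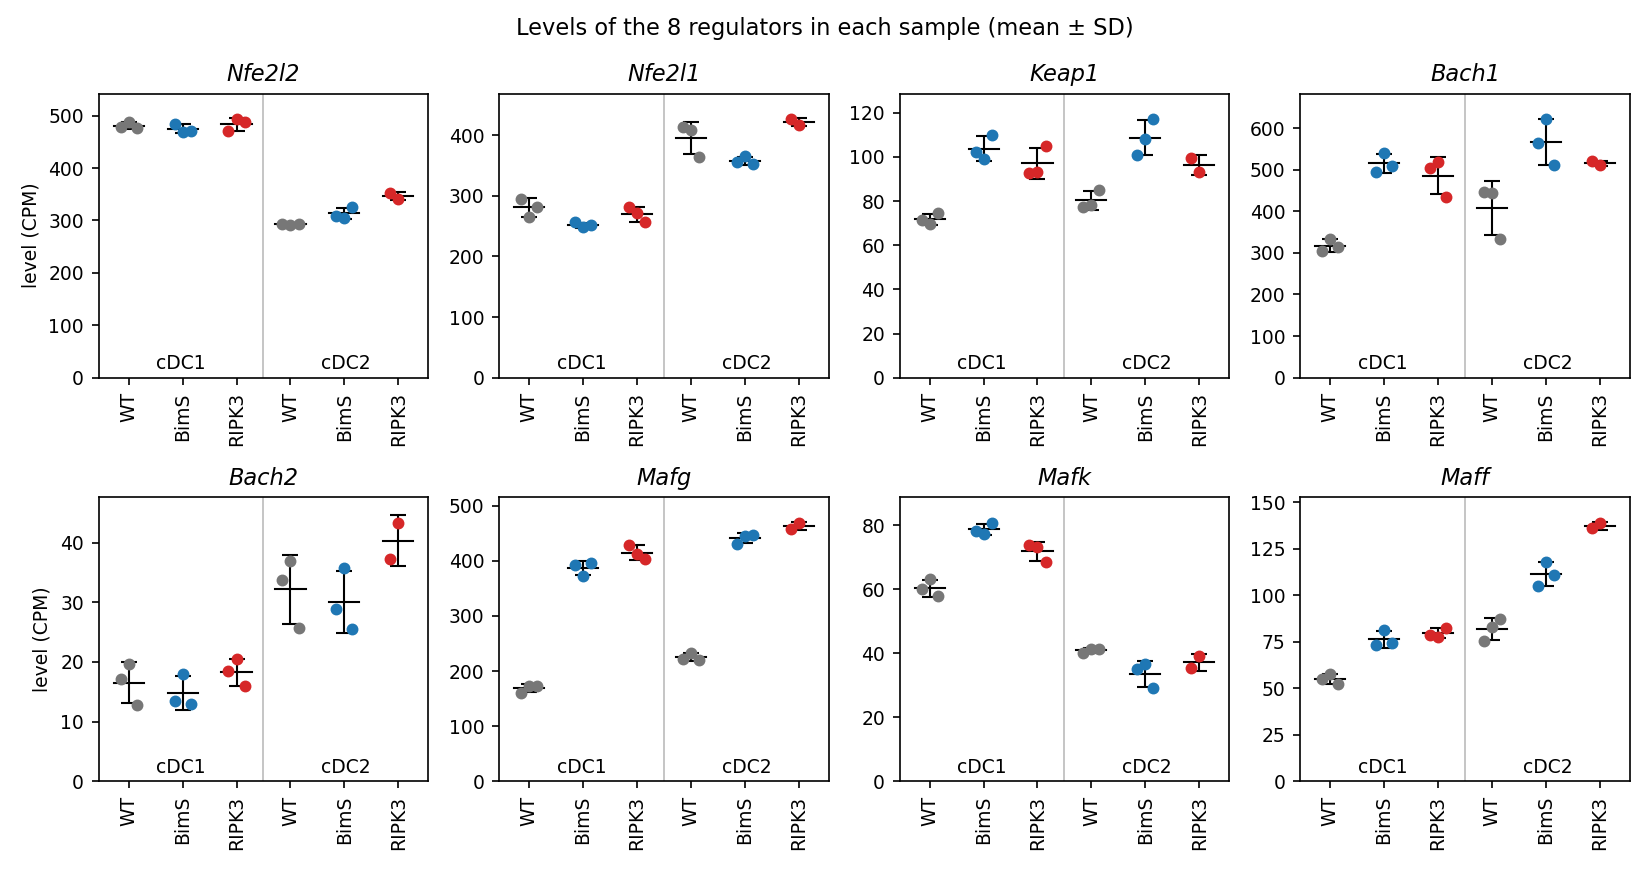
Level of each regulator in every sample, in CPM on an axis from 0, by cell type and medium (points: samples; black line and bar: mean ± SD, 3 samples a group, 2 in cDC2 RIPK3). Mafg lies between 160 and 233 CPM in all samples with WT medium and between 373 and 469 CPM in all samples with BimS or RIPK3 medium, while Nfe2l2 lies between 469 and 493 CPM in all cDC1 samples.

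The small MAF genes held the largest change of the 8, that of Mafg (chr11:120515942-120524530, minus strand). In cDC1s its level was 160, 173 and 173 CPM with WT medium, 393, 373 and 396 CPM with BimS medium and 429, 413 and 403 CPM with RIPK3 medium. In cDC2s it was 222, 233 and 220 CPM with WT medium, 431, 445 and 447 CPM with BimS medium and 458 and 469 CPM with RIPK3 medium. In both cell types every sample with debris lay above every sample with WT medium. The log2 fold change in cDC1s was 1.20 (SE 0.0488, adjusted p = 2.41e-20) with BimS medium and 1.30 (SE 0.0489, adjusted p = 2.10e-21) with RIPK3 medium. In cDC2s it was 0.97 (SE 0.0739, adjusted p = 3.91e-08) and 1.03 (SE 0.0808, adjusted p = 5.28e-08). In linear terms these are 2.30-fold and 2.46-fold in cDC1s and 1.96-fold and 2.05-fold in cDC2s. All 4 calls held under each of the 8 alternatives and without any single sample.

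Exons of Mafg overlap Sirt7, a deacetylase gene on the same strand, and Gm17586, a noncoding gene on the other strand that starts beside the Mafg start, and the counting is not stated to use strand. Sirt7 moved little, by 0.15 (adjusted p = 0.0484) and 0.19 (adjusted p = 0.00891) on the log2 scale in cDC1s and by -0.01 (adjusted p = 0.960) and 0.02 (adjusted p = 0.946) in cDC2s with BimS and RIPK3 medium. Gm17586, described here because its values were seen to move, rose in all 4 comparisons. In cDC1s it lay at 9.22 to 11.4 CPM with WT medium at 22.5 to 23.4 CPM with BimS medium and at 20.8 CPM or more with RIPK3 medium. It rose by 1.16 (adjusted p = 2.02e-12) and 1.11 (adjusted p = 6.20e-12) on the log2 scale. In cDC2s its log2 fold change was 1.00 (adjusted p = 7.52e-05) and 1.02 (adjusted p = 0.000144). The antisense gene thus changed by about the factor of Mafg at a far lower level, and its part in the Mafg counts was not tested.

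Maff (chr15:79230821-79243276, plus strand), a small MAF known to respond to stress and cytokines, rose in both cell types. In cDC1s it was at 55.0, 57.5 and 52.4 CPM with WT medium, 73.2, 81.5 and 74.1 CPM with BimS medium and 78.9, 77.8 and 82.6 CPM with RIPK3 medium. The cDC2 samples were at 75.3, 83.2 and 87.3 CPM, then 105, 118 and 111 CPM, then 136 and 139 CPM. No sample with debris overlapped a WT sample of its cell type, and in cDC2s the RIPK3 samples also lay above the BimS samples. The log2 fold change was 0.47 (SE 0.0584, adjusted p = 8.91e-08) and 0.54 (SE 0.0584, adjusted p = 4.75e-09) in cDC1s, and 0.45 (SE 0.0842, adjusted p = 0.00163) and 0.74 (SE 0.0927, adjusted p = 1.73e-05) in cDC2s, for BimS and RIPK3 medium. On log2 counts without normalization the cDC2 BimS value was 0.38 (adjusted p = 0.0826). An overlapping antisense gene, Gm56727, was at 2.46 to 8.58 CPM and passed no test (adjusted p 0.156 to 0.931 over the 4 comparisons).

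Mafk (chr5:139776804-139788408, plus strand) is the third small MAF. Its change with BimS medium differed between the cell types, larger in cDC1s by 0.67 on the log2 scale (adjusted p = 0.000532). With RIPK3 medium this difference was 0.39 and did not pass the edgeR test without the block (adjusted p = 0.111). In cDC1s it was at 60.0, 63.0 and 57.8 CPM with WT medium, 78.0, 77.2 and 80.7 CPM with BimS medium and 73.8, 73.2 and 68.4 CPM with RIPK3 medium. The cDC2 levels were 40.0, 41.4 and 41.4 CPM with WT medium, 34.9, 36.6 and 29.0 CPM with BimS medium and 35.3 and 39.0 CPM with RIPK3 medium. Every debris sample was above WT in cDC1s and below WT in cDC2s. In cDC1s the log2 fold change was 0.39 (SE 0.0561, adjusted p = 2.41e-06) and 0.25 (SE 0.0565, adjusted p = 0.000977) with BimS and RIPK3 medium. In cDC2s it was -0.29 (SE 0.0995, adjusted p = 0.0953) and -0.15 (SE 0.112, adjusted p = 0.547), which did not pass the test. With the replicate number as a block both cDC2 values passed, at -0.29 (adjusted p = 4.63e-05) and -0.20 (adjusted p = 0.0431), the BimS value also passed in the fit of all samples (-0.29, adjusted p = 0.0136), and on log2 counts without normalization the cDC1 RIPK3 call was lost (0.13, adjusted p = 0.487).

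**Figure D2:**
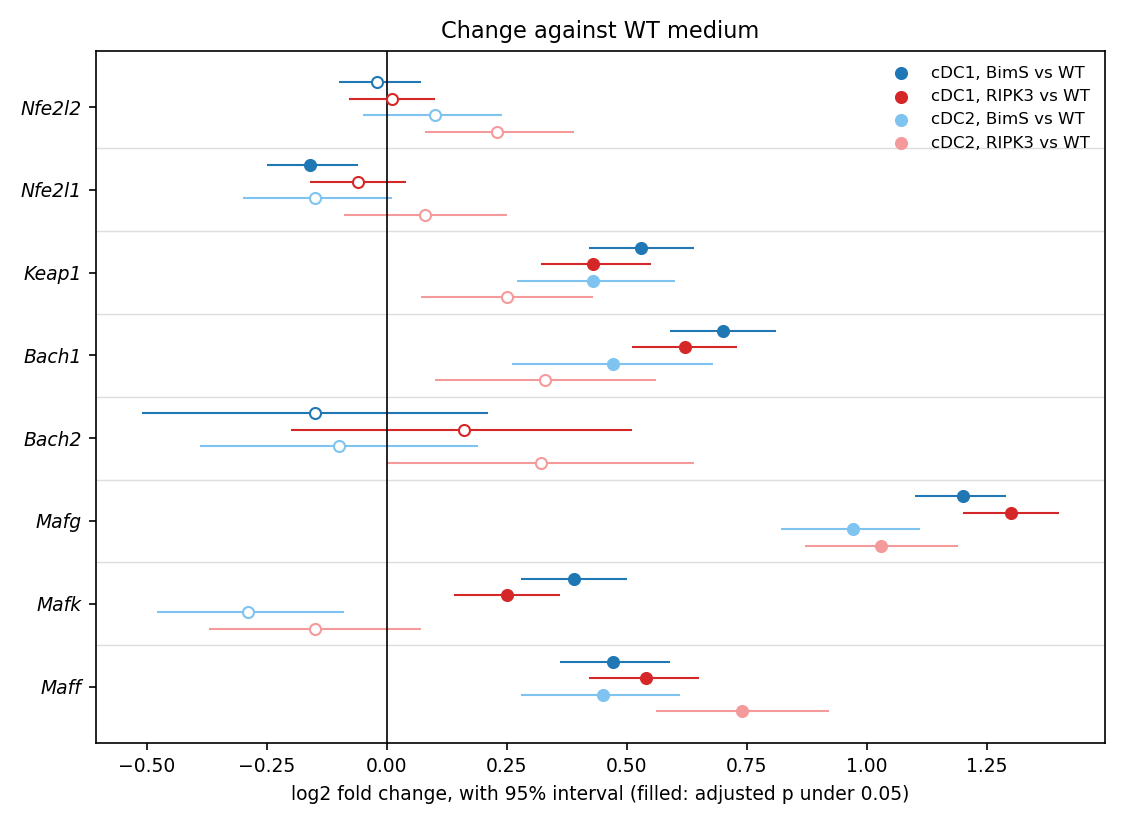
Log2 fold change of each regulator against WT medium (points) with its 95% interval (lines), by cell type and debris, where filled points have an adjusted p under 0.05 in edgeR. Mafg lies between 0.97 and 1.30 in all 4 comparisons, and Mafk is at 0.39 and 0.25 in cDC1s and at -0.29 and -0.15 in cDC2s.

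Of the repressors, Bach1 (chr16:87495782-87530234, plus strand) passed as higher in 3 of the 4 comparisons with WT medium and Bach2 in none. In cDC1s Bach1 was at 304, 334 and 313 CPM with WT medium, 495, 540 and 510 CPM with BimS medium and 505, 518 and 434 CPM with RIPK3 medium. The cDC2 samples lay at 447, 443 and 333 CPM, then 565, 621 and 511 CPM, then 520 and 511 CPM. Each debris sample was above each WT sample of its cell type, though 1 WT sample of cDC2s, replicate 3, lay well below the other two. In cDC1s the log2 fold change was 0.70 (SE 0.0566, adjusted p = 1.37e-10) with BimS medium and 0.62 (SE 0.0566, adjusted p = 1.52e-09) with RIPK3 medium, 1.63-fold and 1.53-fold. In cDC2s it was 0.47 (SE 0.107, adjusted p = 0.0101) with BimS medium, which passed the test, and 0.33 (SE 0.118, adjusted p = 0.123) with RIPK3 medium, which did not. The RIPK3 value passed with the block (0.23, adjusted p = 9.02e-06), without a filter (0.34, adjusted p = 0.00510) and in the fit of all samples (0.34, adjusted p = 0.0363), and leaving out cDC2 BimS replicate 2 took the BimS value to 0.40 (adjusted p = 0.0787).

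Bach2 (chr4:32238714-32586108, plus strand), known for restraining effector programs in B and T cells, passed in none of the 4 comparisons with WT medium. In cDC1s it was at 17.1, 19.6 and 12.8 CPM with WT medium, 13.4, 18.0 and 12.9 CPM with BimS medium and 18.5, 20.4 and 15.9 CPM with RIPK3 medium, and the 3 groups overlapped. Levels in cDC2s were 33.8, 36.9 and 25.7 CPM, then 28.8, 35.8 and 25.5 CPM, then 37.3 and 43.3 CPM, and the RIPK3 samples were above the others. The log2 fold change ran from -0.15 to 0.32 over the 4 comparisons with WT, with adjusted p from 0.335 to 0.816. The highest, for cDC2s with RIPK3 medium, was 0.19 (adjusted p = 0.0580) with the replicate number as a block. Summed B cell markers were 0.560 to 1.73 CPM in cDC1s, 2.07 to 3.71 CPM in cDC2s with WT or BimS medium and 4.28 to 4.53 CPM in cDC2s with RIPK3 medium. Of the 8 B cell markers 0 passed for RIPK3 against WT medium in cDC2s, and their part in the Bach2 level was not tested.

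Keap1 (chr9:21141026-21150679, minus strand), the sensor that holds NRF2 back, passed as higher in 3 of the 4 comparisons with WT medium. In cDC1s it was at 71.4, 69.6 and 74.5 CPM with WT medium, 102, 99.0 and 110 CPM with BimS medium and 92.9, 93.3 and 105 CPM with RIPK3 medium. The cDC2 samples held 77.4, 78.2 and 85.2 CPM, then 101, 108 and 117 CPM, then 99.5 and 93.0 CPM. No debris sample overlapped the WT samples of its cell type. The log2 fold change in cDC1s was 0.53 (SE 0.0576, adjusted p = 5.80e-09) with BimS medium and 0.43 (SE 0.0578, adjusted p = 3.58e-07) with RIPK3 medium. In cDC2s it was 0.43 (SE 0.0836, adjusted p = 0.00210) with BimS medium and 0.25 (SE 0.0932, adjusted p = 0.128) with RIPK3 medium. The cDC2 RIPK3 value passed with the block (0.30, adjusted p = 5.57e-06), in the fit of all samples (0.26, adjusted p = 0.0293) and without cDC2 WT replicate 3 (0.29, adjusted p = 0.0404), and on log2 counts without normalization the cDC2 BimS call was lost (0.36, adjusted p = 0.110).

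Of the activators, Nfe2l2 passed in none of these comparisons and Nfe2l1 in 1. Nfe2l2 (chr2:75504739-75534985, minus strand) was at 478, 488 and 476 CPM with WT medium, 485, 469 and 471 CPM with BimS medium and 470, 493 and 488 CPM with RIPK3 medium in cDC1s. The 3 groups overlapped, and the 95% interval of the log2 fold change was -0.10 to 0.07 with BimS medium and -0.08 to 0.10 with RIPK3 medium. In cDC2s Nfe2l2 was at 293, 292 and 293 CPM, then 309, 305 and 326 CPM, then 352 and 341 CPM, so that the groups did not overlap. Between RIPK3 and WT medium in cDC2s all 8 regulators lay apart in this way, though only 2 passed the test. The log2 fold change of Nfe2l2 in cDC2s was 0.10 (SE 0.0727, adjusted p = 0.552) with BimS medium and 0.23 (SE 0.0808, adjusted p = 0.0943) with RIPK3 medium. The latter passed the test with the block (0.24, adjusted p = 5.52e-06), in DESeq2 (0.26, adjusted p = 0.0368), with filterByExpr (0.25, adjusted p = 0.0398) and in the fit of all samples (0.24, adjusted p = 0.00677).

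Nfe2l1 (chr11:96705767-96720813, minus strand) encodes NRF1, which raises proteasome genes when the proteasome falls short. In cDC1s it was at 295, 265 and 282 CPM with WT medium, 256, 248 and 251 CPM with BimS medium and 281, 271 and 256 CPM with RIPK3 medium. Levels in cDC2s were 413, 408 and 364 CPM, then 355, 365 and 352 CPM, then 426 and 417 CPM. In cDC1s every BimS sample lay below every WT sample, at -0.16 on the log2 scale (SE 0.0493, adjusted p = 0.0265). That call was lost in the fit of all samples (adjusted p = 0.122) and on log2 counts without normalization (adjusted p = 0.315), as well as without cDC1 WT replicate 1 (adjusted p = 0.220) or 3 (adjusted p = 0.0899) and without cDC1 BimS replicate 2 (adjusted p = 0.0791) or 3 (adjusted p = 0.0851). In cDC2s the BimS value was -0.15 (adjusted p = 0.340), which passed with the block (-0.14, adjusted p = 0.00305), and the RIPK3 values were -0.06 (adjusted p = 0.508) in cDC1s and 0.08 (adjusted p = 0.702) in cDC2s.

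Apoptotic and necroptotic debris were then compared with each other. In cDC1s 0 of 8 passed for RIPK3 against BimS, where 4.15% of all genes did, and in cDC2s 0 of 8 passed, where 0.379% did. The cDC2 share rests on 73 genes, a count that was 0 without cDC2 RIPK3 replicate 2, 12 without cDC2 RIPK3 replicate 1 and 214 without cDC2 WT replicate 3. In edgeR an unadjusted p under 0.05 was reached by 2 of 8 in cDC1s, Mafg (0.10 on the log2 scale) and Mafk (-0.13), and by 3 of 8 in cDC2s, Nfe2l1 (0.23), Bach2 (0.41) and Maff (0.29). DESeq2 and limma called 0 in both cell types. Without a filter Bach2 passed in cDC1s (0.30, adjusted p = 0.0417) and in cDC2s (0.41, adjusted p = 0.0429). In the fit of all samples Maff passed in cDC2s (0.30, adjusted p = 0.0431). The 95% intervals of the log2 difference in cDC1s were for Mafg 0.01 to 0.19, for Bach1 -0.20 to 0.02 and for Nfe2l2 -0.06 to 0.11. In cDC2s they were wider, for Maff 0.11 to 0.47 and for Bach1 -0.38 to 0.09. With the replicate number as a block, 1 of 8 passed in cDC1s, Bach2 (0.30, adjusted p = 0.00829), where 8.87% of all genes did. In cDC2s 5 of 8 passed with the block, where 14.3% of all genes did, namely Maff (0.31, adjusted p = 7.48e-07), Bach2 (0.29, adjusted p = 0.00239), Nfe2l1 (0.19, adjusted p = 0.000952) and Nfe2l2 (0.15, adjusted p = 0.0184) higher with RIPK3 medium and Bach1 (-0.25, adjusted p = 3.81e-06) lower.

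The cell types differed in most regulators, in opposite directions. With WT medium 7 of 8 passed the test between cDC1s and cDC2s, where 46.2% of all 19082 genes did, and 6 of 8 passed with BimS medium (46.2%) and with RIPK3 medium (42.8%). Nfe2l2 and Mafk were higher in cDC1s in all 3 media. Nfe2l2 stood 1.64-fold, 1.52-fold and 1.39-fold higher with WT, BimS and RIPK3 medium (log2 0.72, 0.60 and 0.48, adjusted p at most 1.86e-07), and the samples of the cell types did not overlap. Mafk was 1.47-fold, 2.34-fold and 1.93-fold higher (log2 0.56, 1.23 and 0.95, adjusted p at most 3.75e-07). Nfe2l1, Bach2, Maff and Mafg were lower in cDC1s in all 3 media. The log2 difference was -0.49, -0.51 and -0.64 for Nfe2l1, -0.96, -1.02 and -1.14 for Bach2, and -0.58, -0.55 and -0.79 for Maff. For Mafg it was -0.42 (adjusted p = 6.35e-07), -0.19 (adjusted p = 0.00764) and -0.16 (adjusted p = 0.0466), but on log2 counts without normalization the first did not pass (-0.26, adjusted p = 0.0524) and the last 2 were 0.01 and 0.07. The last call was lost without a filter (-0.13, adjusted p = 0.242). With 1 sample left out it was kept only without cDC1 RIPK3 replicate 1, cDC2 WT replicate 1 or 3, or cDC2 BimS replicate 3, and was lost without any of the other 13 samples (highest adjusted p = 0.208, without cDC2 RIPK3 replicate 2). Bach1 was lower in cDC1s with WT medium (-0.36, adjusted p = 0.00255), with overlapping samples and not on log2 counts without normalization (-0.19, adjusted p = 0.264), and did not pass with BimS or RIPK3 medium (-0.14, adjusted p = 0.258, and -0.09, adjusted p = 0.554). Keap1 passed in none of the 3 media (-0.16, -0.06 and 0.01), though with the replicate number as a block the WT value passed (-0.16, adjusted p = 0.0143).

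**Figure D3:**
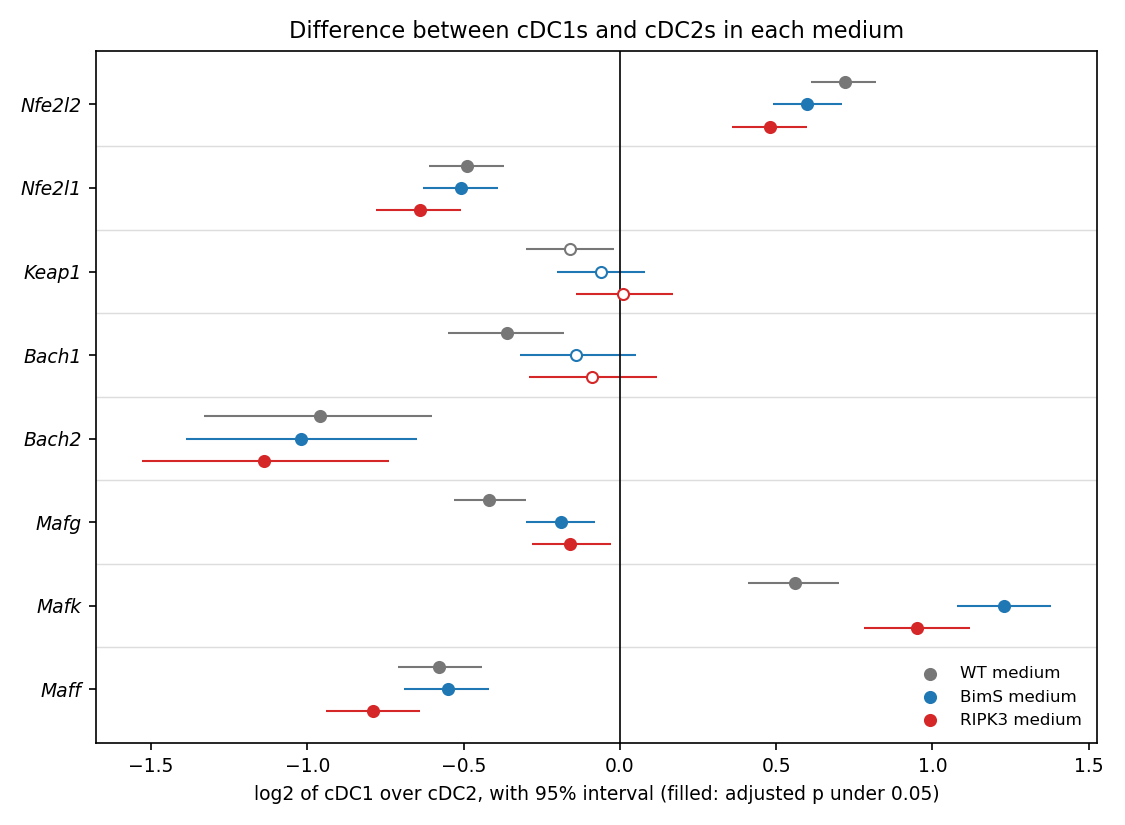
Log2 ratio of cDC1s over cDC2s for each regulator (points) with its 95% interval (lines) in each medium, where filled points have an adjusted p under 0.05 in edgeR. Nfe2l2 and Mafk lie above 0 and Nfe2l1, Bach2, Mafg and Maff below 0 in all 3 media, with Mafk at 0.56, 1.23 and 0.95.

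Whether debris changed a regulator differently in the cell types was tested as an interaction, the change in cDC1s minus that in cDC2s. For BimS medium 1 of 8 passed, Mafk, where 0.870% of all genes did. The Mafk change was larger in cDC1s by 0.67 on the log2 scale (SE 0.107, adjusted p = 0.000532), and this call held under each of the 7 alternatives fitted and without any single sample. For RIPK3 medium 0 of 8 passed, where 1.14% of all genes did. Mafk stood at 0.39 (adjusted p = 0.111), Mafg at 0.26 (adjusted p = 0.220) and Nfe2l2 at -0.24 (adjusted p = 0.247), the 3 with an unadjusted p under 0.05, and DESeq2 called 2, Mafg and Nfe2l2. With the replicate number as a block Mafk passed (0.42, adjusted p = 0.0140), where 2.35% of all genes did. Without cDC2 WT replicate 3, Bach1 passed (0.40, adjusted p = 0.0409). For the interaction of RIPK3 against BimS 0 of 8 passed, where 0.0314% did, with 2 at an unadjusted p under 0.05, Mafk (-0.28) and Maff (-0.24), and 0 by DESeq2 and limma.

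Levels were compared between genes only per length, as CPM per kb of the canonical transcript. In cDC1s with WT medium Nfe2l2 was the highest at 134 ± 1.65 CPM per kb (SD, n = 3), followed by Nfe2l1 at 61.1 ± 3.23 and Bach1 at 53.5 ± 2.59. Maff was at 28.1 ± 1.31 CPM per kb, and Keap1, Mafg and Mafk were at 22.4 ± 0.764, 21.8 ± 0.967 and 21.1 ± 0.917, where Mafg differed from either neighbour by less than the SDs. Bach2 was the lowest at 1.84 ± 0.383 CPM per kb. With RIPK3 medium the order in cDC1s changed through Bach1 (82.0 ± 7.67) and Mafg (53.6 ± 1.73), which then stood above and close to Nfe2l1 (58.6 ± 2.74), while Nfe2l2 stayed at 135 ± 3.44 CPM per kb. With BimS medium Bach1 was at 87.0 ± 3.86 CPM per kb.

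In cDC2s Nfe2l2 did not stand apart. By canonical length with WT medium Nfe2l1 was at 85.9 ± 5.78 CPM per kb (SD, n = 3), Nfe2l2 at 81.5 ± 0.0997 and Bach1 at 68.9 ± 11.0. Nfe2l1 and Nfe2l2 differed by less than the SD of Nfe2l1, and every Bach1 sample lay below every sample of both. Maff followed at 41.8 ± 3.12, Mafg at 29.0 ± 0.904, Keap1 at 25.1 ± 1.33, Mafk at 14.4 ± 0.284 and Bach2 at 3.58 ± 0.647 CPM per kb. With RIPK3 medium (n = 2) Nfe2l2, Nfe2l1 and Bach1 lay at 96.5 ± 2.18, 91.7 ± 1.37 and 87.1 ± 1.15, Maff at 70.3 ± 1.12, Mafg at 59.8 ± 1.00, Keap1 at 30.1 ± 1.43, Mafk at 13.0 ± 0.921 and Bach2 at 4.49 ± 0.472 CPM per kb. Among the small MAF genes Maff stood above Mafg with RIPK3 medium and within the spread of it with BimS medium (57.1 ± 3.33 and 56.9 ± 1.11), and Mafk was the lowest in all 3 media. The order rests on the transcript length used. Per kb of all annotated exons, Mafg (54.4) stood above Maff (43.2) in cDC2s with RIPK3 medium, and Bach1 (43.5) above Nfe2l1 (35.5) in cDC1s with WT medium, while Nfe2l2 (88.0) stayed the highest there. On that length Bach1 was the highest in cDC2s, at 56.0 with WT medium, 77.8 with BimS medium and 70.8 with RIPK3 medium, followed by Nfe2l2 at 53.6, 57.4 and 63.5, though with WT medium the Bach1 samples spread more widely than that gap.

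**Figure D4:**
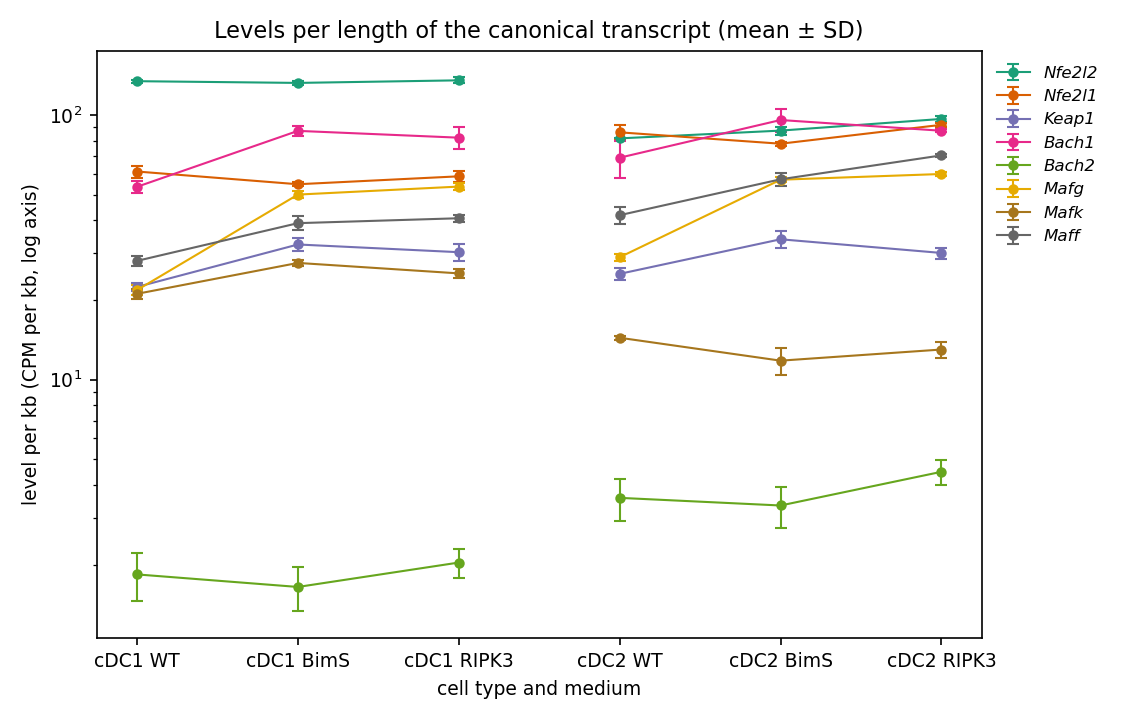
Level of each regulator in CPM per kb of its canonical transcript on a log axis, by cell type and medium (points and bars: mean ± SD). Nfe2l2 is the highest of the 8 in cDC1s at 132 to 135 CPM per kb, and Mafg goes from 21.8 to 53.6 CPM per kb in cDC1s and from 29.0 to 59.8 CPM per kb in cDC2s between WT and RIPK3 medium.

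The textbook target genes of NRF2 and BACH1 were higher with debris in both cell types. In cDC1s 22 of the 23 targets tested rose with BimS medium and 22 with RIPK3 medium, the exception being Tkt, a pentose phosphate enzyme at 0.14 and 0.10 on the log2 scale, and Mgst1 was too low to test. In cDC2s 23 of 24 rose with BimS medium, all but the glutathione transferase gene Mgst1 (-0.63), and 22 of 24 with RIPK3 medium, all but Mgst1 (-0.93) and Tkt (0.15), and none passed as lower in any of the 4 comparisons. Mgst1 held only 1 to 4 counts per sample in cDC2s, so its values there lie near the limit of detection. Of all genes 7.31% and 8.34% were higher in cDC1s and 3.80% and 3.93% in cDC2s. The median log2 fold change of the targets was 1.66 and 1.78 in cDC1s and 1.13 and 1.06 in cDC2s for BimS and RIPK3 medium. Many of these genes are among the best known responses of the pathway, and the list was written with earlier results of these samples known, so its direction is not independent evidence.

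Among the targets, the heme oxygenase gene Hmox1 went from 569 to 685 CPM with WT medium to 5040 to 5230 CPM with BimS medium and 6520 to 7000 CPM with RIPK3 medium in cDC1s. In cDC2s it went from 114 to 179 CPM to 1380 to 1670 CPM and 2610 to 2740 CPM. Its log2 fold change was 3.05 and 3.44 in cDC1s and 3.34 and 4.13 in cDC2s (adjusted p at most 1.77e-07). The quinone reductase gene Nqo1 lay at 5.88 to 6.53 CPM in cDC1s and 42.0 to 58.0 CPM in cDC2s with WT medium and rose by 2.82 and 2.92 in cDC1s and by 1.63 and 1.52 in cDC2s on the log2 scale. Gclm, a subunit of the rate-limiting enzyme of glutathione synthesis, rose by 1.97 and 2.17 in cDC1s and by 1.49 and 1.51 in cDC2s. Slc7a11, the cystine importer, rose by 1.39 and 1.50 in cDC1s and by 0.76 and 0.60 in cDC2s, where the RIPK3 call was lost without cDC2 RIPK3 replicate 1 (adjusted p = 0.0584) or 2 (adjusted p = 0.0957). The growth inhibitor gene Osgin1 rose by 2.44 with RIPK3 medium in cDC1s, and in cDC2s the heme transporter gene Slc48a1 rose by 1.99 and the peroxidase gene Prdx1 by 1.58.

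Targets rose more in cDC1s than in cDC2s in several cases. The interaction passed for 8 of 24 targets with BimS medium and 12 of 24 with RIPK3 medium, all with the larger change in cDC1s. Of all genes 0.870% and 1.14% passed in either direction. The BimS count was 3 without cDC1 WT replicate 1, 4 without cDC1 BimS replicate 1 or cDC2 BimS replicate 1, and 5 without cDC1 WT replicate 2 or 3 or cDC1 BimS replicate 3, and the RIPK3 count was 7 without cDC2 RIPK3 replicate 2. On log2 counts without normalization the BimS count was 5. The interaction was 1.18 (adjusted p = 0.0291) and 1.39 (adjusted p = 0.0109) for Nqo1, 0.48 (adjusted p = 0.0134) and 0.64 (adjusted p = 0.000867) for Gclm, and 0.64 (adjusted p = 0.0498) and 0.89 (adjusted p = 0.00525) for Slc7a11. The BimS calls of these 3 genes were lost without several single samples, up to adjusted p = 0.102 for Nqo1, 0.0806 for Gclm and 0.149 for Slc7a11. The opposite sign was seen for Hmox1, at -0.29 (adjusted p = 0.729) and -0.70 (adjusted p = 0.0963), which did not pass in edgeR, though the RIPK3 value passed in DESeq2 (-0.72, adjusted p = 0.00325), with the block (-0.74, adjusted p = 0.0440), with filterByExpr (-0.71, adjusted p = 0.0465), without a filter (-0.69, adjusted p = 0.0294) and without cDC2 WT replicate 1 (-0.54, adjusted p = 0.00348) or 2 (-0.84, adjusted p = 0.00703). With WT medium 46.2% of all genes passed between the cell types in either direction. Of the 24 targets 16 were lower in cDC1s than in cDC2s there and 4 were higher, Hmox1 among the latter (log2 2.03, adjusted p = 1.11e-09). Between RIPK3 and BimS debris, 4.15% of all genes passed in cDC1s and 0.379% in cDC2s. Of the targets, 4 were higher with RIPK3 medium in cDC1s, Hmox1 by 0.38 (adjusted p = 1.02e-05), Srxn1 by 0.24 (adjusted p = 0.00107), Slc48a1 by 0.22 (adjusted p = 0.00547) and Gclm by 0.19 (adjusted p = 0.0111), and none in cDC2s. All 4 calls were lost in the fit of all samples (adjusted p = 0.174, 0.127, 0.236 and 0.241 in that order) and on log2 counts without normalization (adjusted p = 0.0573, 0.546, 0.653 and 0.721), and the Gclm call also without cDC1 BimS replicate 2 (adjusted p = 0.0752).

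**Figure D5:**
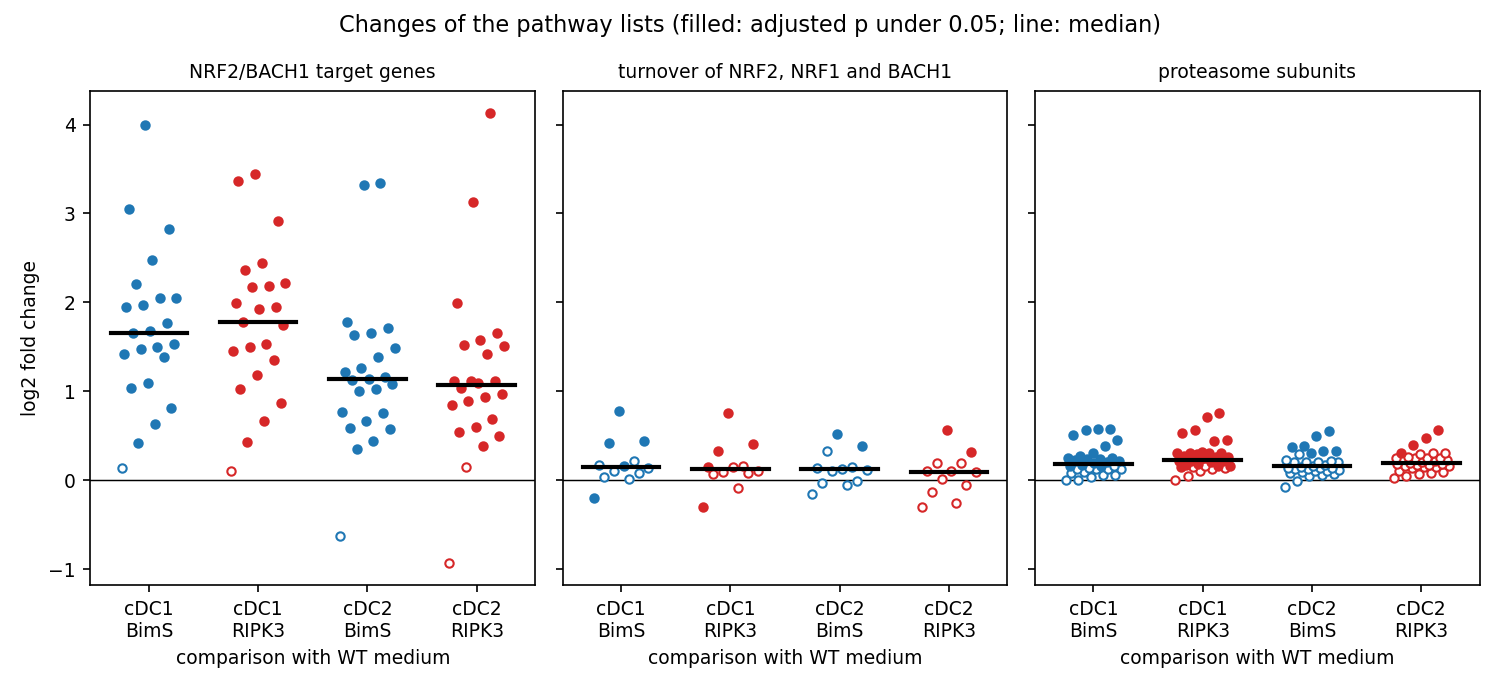
Log2 fold change against WT medium of each tested gene of 3 pathway lists (points; filled: adjusted p under 0.05 in edgeR; line: median), by cell type and debris. The medians of the NRF2 and BACH1 targets lie at 1.66, 1.78, 1.13 and 1.06, those of the turnover genes between 0.10 and 0.15 and those of the proteasome subunits between 0.15 and 0.23.

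Of 12 genes whose products control the turnover of NRF2, NRF1 and BACH1, 4 rose and 1 fell in cDC1s with either debris, and 2 rose in cDC2s with either debris. Of all genes 7.31% and 8.34% were higher in cDC1s and 3.80% and 3.93% in cDC2s with BimS and RIPK3 medium. Sqstm1, whose product p62 binds KEAP1 and feeds it into autophagy, rose by 0.78 and 0.76 in cDC1s and by 0.52 and 0.56 in cDC2s on the log2 scale (adjusted p at most 0.000120), and the last of these calls was lost on log2 counts without normalization (0.38, adjusted p = 0.0639). Its level in cDC1s was 2640 to 2680 CPM with WT medium and 4390 to 4700 CPM with debris. Vcp, a segregase that pulls NRF1 out of the membrane, rose by 0.44 and 0.41 in cDC1s and by 0.38 and 0.32 in cDC2s. The last Vcp call (adjusted p = 0.0233) was lost without cDC2 WT replicate 1 (adjusted p = 0.0548) or 2 (adjusted p = 0.101) or cDC2 RIPK3 replicate 1 (adjusted p = 0.198) or 2 (adjusted p = 0.131), and on log2 counts without normalization both cDC2 calls of Vcp were lost (0.31, adjusted p = 0.180, and 0.15, adjusted p = 0.612). Fbxl17, an F-box gene of BACH1 turnover, rose by 0.33 (adjusted p = 0.00506) with RIPK3 medium in cDC1s. On log2 counts without normalization this call was lost (0.21, adjusted p = 0.311), and 2 turnover genes instead of 4 passed as higher there. Ddi2, the protease that activates NRF1, fell by 0.20 (adjusted p = 0.0149) and 0.30 (adjusted p = 0.000168) in cDC1s. Both Ddi2 calls were lost in the fit of all samples (adjusted p = 0.428 and 0.142), and the BimS call also on log2 counts without normalization (adjusted p = 0.184) and without cDC1 WT replicate 1 (adjusted p = 0.0874) or cDC1 BimS replicate 3 (adjusted p = 0.0845). With the block, 6 turnover genes passed as higher in cDC2s with BimS medium instead of 2, where the block called 21.3% of all genes in either direction.

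Proteasome subunits are known targets of NRF1. Of 32 subunits, 19 were higher with BimS medium and 25 with RIPK3 medium in cDC1s, 7 and 4 were higher in cDC2s, where most did not pass, and none was lower. Of all genes 7.31%, 8.34%, 3.80% and 3.93% were higher in the same order. The median log2 fold change of the subunits was 0.18, 0.23, 0.15 and 0.20. Psma5 rose by 0.71 (adjusted p = 2.27e-12) in cDC1s and by 0.56 (adjusted p = 0.00683) in cDC2s with RIPK3 medium, and Psmc1 by 0.75 (adjusted p = 1.73e-14) and 0.40 (adjusted p = 0.00920). Without cDC2 RIPK3 replicate 1 or 2 neither passed in cDC2s, at adjusted p = 0.0767 and 0.0857 for Psma5 and 0.122 and 0.0852 for Psmc1, and Psmc1 was also lost without cDC2 WT replicate 2 (adjusted p = 0.0677). The largest changes that the naming rule picked also included Psma3 (0.56) in cDC1s and Psmd1 (0.47) in cDC2s. On log2 counts without normalization the cDC2 calls were lost for Psma5 (0.40, adjusted p = 0.0833), Psmc1 (0.23, adjusted p = 0.386) and Psmd1 (0.30, adjusted p = 0.213). The cDC1 counts on log2 counts without normalization were 6 with BimS and 6 with RIPK3 medium, and the cDC2 counts were 2 and 0. In the fit of all samples the cDC1 BimS count was 11 and the cDC2 RIPK3 count 13, and the latter was 7 in DESeq2 and without a filter. The cDC2 counts also hung on single samples and on the block. Without cDC2 WT replicate 3 they were 16 with either medium, and with the block, which called 21.3% and 21.4% of all genes, 23 and 29. Without cDC2 WT replicate 2 they were 1 and 2, without cDC2 BimS replicate 3 the BimS count was 4, and without cDC2 RIPK3 replicate 1 or 2 the RIPK3 count was 1. With WT medium 28 of the 32 subunits were lower in cDC1s than in cDC2s, where 46.2% of all genes passed in either direction.

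Of 6 other genes of the CNC and MAF families, 1 passed as higher in cDC1s with either debris and 1 in cDC2s with BimS medium. The list medians on the log2 scale were -0.17 and -0.10 in cDC1s and 0.52 and 0.21 in cDC2s with BimS and RIPK3 medium. The gene that passed was the large MAF factor gene Maf, which lies outside the naming rule and is named after its values were seen. It was at 3.09 to 3.36 CPM with WT medium and 6.62 to 9.96 CPM with BimS medium in cDC1s. It rose there by 1.40 (adjusted p = 3.75e-09) with BimS medium and by 1.28 (adjusted p = 2.45e-08) with RIPK3 medium on the log2 scale. In cDC2s the Maf change was 0.76 (adjusted p = 0.0202) with BimS medium and 0.51 (adjusted p = 0.224) with RIPK3 medium. The BimS call in cDC2s was lost on log2 counts without normalization (adjusted p = 0.112) and without cDC2 WT replicate 2 (adjusted p = 0.0585) or 3 (adjusted p = 0.0532) or cDC2 BimS replicate 2 (adjusted p = 0.0551) or 3 (adjusted p = 0.0797).

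For each regulator the 3 genes with the most similar pattern over the 17 samples were looked up among 7781 genes whose mean log2 CPM reached 3. The measure was the root mean square difference of log2 CPM after each gene was centred on its mean. Mafg was closest to Ypel5 (0.13), Ftl1 (0.14), which encodes ferritin light chain, and Cyb5a (0.14). Bach1 was closest to Cltc (0.09), Ube2o (0.10) and Tbk1 (0.11), and Keap1 to Kpna2 (0.06), Csf2ra (0.09) and Wwp2 (0.10). Nfe2l2 was closest to Psen2 (0.07), Dnajc3 (0.07) and Zfp706 (0.08), and Nfe2l1 to Phc1 (0.06), Msl1 (0.07) and Slbp (0.08). Maff was closest to Zswim4 (0.09), Nfyb (0.11) and Ubxn4 (0.12), Mafk to Coa5 (0.14), Rpn1 (0.14) and Macroh2a1 (0.15), and Bach2 to Cmtr1 (0.17), Rnf2 (0.19) and Cd93 (0.19). These distances describe 6 groups of samples that share libraries and depth, and carry no test.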

How the data were processed

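RNA of 17 samples was sequenced by the authors after poly-A selection. They trimmed the reads, aligned them with STAR 2.7.10a to GRCm39 and summed them per Ensembl gene. The deposited values are raw counts per gene, and whether strand was used is not given in the sources used here. Of 31239 lines, 148 without an identifier (0.0258 to 0.0366% of counts) were left out, and 30854 of 31091 identifiers matched GENCODE M39. A deposited table of scaled log2 values made from these counts was not used. Groups were taken from the sample labels.

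A gene was kept where 50% or more of the fitted samples held a nonzero count, and was tested with edgeR 4.0.16 (R 4.3.3) by the robust quasi-likelihood test after TMM scaling, with Benjamini-Hochberg adjustment over all genes tested and a threshold of 0.05. Media were compared within each cell type, and cell types and interactions in a fit of all 17 samples. Limma on log2(count + 1), the kind of fit the authors used but read here at the adjusted threshold with no fold limit, limma on TMM-scaled log2 CPM (limma 3.58.1), DESeq2 1.42.0, other scalings and filters, a fit of all samples and each sample left out were the alternatives. On simulated counts the fits within a cell type made more false calls than the nominal rate.

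Samples with the same replicate number deviated together within a cell type, with r above 0.1 in 16 of 16 pairs (median r 0.36). For unlike numbers this held in 4 of 32 pairs (median r -0.19). Across cell types it held in 19 of 24 pairs with the same number (median r 0.21) and 5 of 48 with unlike numbers (median r -0.10). The pairing comes from the data and not from the labels. The members, lists and the rule for named genes were chosen with earlier results of these data known. The rule named all 8 members, Hmox1, Nqo1, Slc7a11 and Gclm, and from each other list up to 3 genes per cell type with the largest change for RIPK3 against WT medium among those past the threshold that had groups apart and a mean log2 CPM of 3 or more. Sequences were read from the GRCm39 genome.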

Additional observations from a re-analysis of the deposited data

Results flagged for a closer look

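A change with debris that differed between cDC1s and cDC2s was found by the interaction test of edgeR, with n = 3 per group and 2 in cDC2s with RIPK3 medium, for 6 of the genes named. Among the regulators this was Mafk with BimS medium, at 0.67 on the log2 scale (adjusted p = 0.000532), which rose in 3 of 3 cDC1 samples and lay below WT in 3 of 3 cDC2 samples. Over the alternatives and the samples left out its adjusted p ran from 2.88e-06 to 0.0448.

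Among the targets the change was larger in cDC1s for Osgin1, by 1.34 (adjusted p = 3.55e-05) with BimS and 1.40 (adjusted p = 3.81e-05) with RIPK3 medium, and these calls held under each of the 7 alternatives fitted and without any single sample. For Nqo1 it was larger by 1.18 (adjusted p = 0.0291) and 1.39 (adjusted p = 0.0109). The Nqo1 call with BimS medium was lost without cDC1 WT replicate 1, 2 or 3, cDC1 BimS replicate 1 or 3, cDC1 RIPK3 replicate 3, cDC2 WT replicate 1 or 3, or cDC2 BimS replicate 1 (highest adjusted p = 0.102).

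For Gclm the change was larger in cDC1s by 0.48 (adjusted p = 0.0134) and 0.64 (adjusted p = 0.000867), and the BimS call was lost without cDC1 WT replicate 1 (adjusted p = 0.0806), cDC1 BimS replicate 1 (adjusted p = 0.0567) or cDC2 BimS replicate 1 (adjusted p = 0.0591), and on log2 counts without normalization (adjusted p = 0.198). For Slc7a11 it was larger by 0.64 (adjusted p = 0.0498) and 0.89 (adjusted p = 0.00525). The Slc7a11 call with BimS medium was lost with DESeq2-type size factors in edgeR (adjusted p = 0.0883), in limma on TMM-scaled log2 CPM (adjusted p = 0.0713) and on log2 counts without normalization (adjusted p = 0.180), and without any single sample other than cDC1 RIPK3 replicate 3 (adjusted p = 0.0303) or cDC2 WT replicate 3 (adjusted p = 0.000561).

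The cDC1 lineage factor Irf8 changed in the other direction, lower in cDC1s relative to cDC2s by -0.78 (adjusted p = 0.0254) with BimS and -1.30 (adjusted p = 0.000265) with RIPK3 medium. The Irf8 call with BimS medium was lost without cDC1 WT replicate 1, cDC1 BimS replicate 1 or 2, cDC2 WT replicate 2 or 3, or cDC2 BimS replicate 1 or 3 (highest adjusted p = 0.116), and the RIPK3 call held under each of the 7 alternatives fitted and without any single sample.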

How the results depend on the processing

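Of 720 values of the regulators under other settings, 684 kept their side of the threshold, 8 fell below it, 26 passed it and 2 reversed. A change of sign was counted as a reversal only where the value passed in either fit. Values that passed in neither could change sign and still count as kept. Of 1224 values with 1 sample left out, 1204 kept their side, 18 fell below and 2 passed. Both counted reversals were Mafg between cell types on log2 counts without normalization, at 0.01 with BimS and 0.07 with RIPK3 medium. That setting shifts the median of all genes by 0.20 and 0.22 there, and by -0.17 to 0.22 over all comparisons. It also left 2 regulators called for cDC2 BimS against WT. With the replicate number as a block, 1 was called for cDC1 RIPK3 against BimS, 6 for cDC2 RIPK3 against WT, 5 for cDC2 RIPK3 against BimS and 1 (Mafk, 0.42, adjusted p = 0.0140) for the RIPK3 interaction. The block also added Keap1 between cell types with WT medium (-0.16, adjusted p = 0.0143). Beyond these and the blocked values given beside the genes, it changed no other call of a regulator. Without a filter 1 regulator, Bach2, was called for RIPK3 against BimS in each cell type. In the fit of all samples 5 were called for cDC2 RIPK3 against WT and 1 (Maff) for cDC2 RIPK3 against BimS. DESeq2 called 2 for the RIPK3 interaction. The cause of these shifts was not tested.

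With 1 sample left out, the calls ran from 5 to 6 for cDC1 BimS, 3 to 4 for cDC2 BimS and 2 to 3 for cDC2 RIPK3 against WT, from 5 to 6 between cell types with RIPK3 medium, and from 0 to 1 for the RIPK3 interaction. Turnover genes called higher in cDC1s with RIPK3 medium were 2 on log2 counts without normalization. Proteasome calls on log2 counts without normalization were 6 and 6 in cDC1s and 2 and 0 in cDC2s for BimS and RIPK3 medium, and turnover genes called higher in cDC2s were 1 and 0. Over all genes, RIPK3 against BimS in cDC2s gave 73 calls in edgeR, 141 in DESeq2, 300 without a filter and 2755 with the block, and 0 to 214 with 1 sample left out. The BimS interaction gave 166 calls in edgeR, 261 in DESeq2, 315 without a filter and 443 with the block, and fell to 93 without cDC1 WT replicate 1. The RIPK3 interaction gave 217 calls and 111 without cDC2 RIPK3 replicate 2. Against WT in cDC2s, the 1349 calls with BimS medium fell to 783 without cDC2 WT replicate 2, and the 1387 with RIPK3 medium fell to 622 without cDC2 RIPK3 replicate 2 and 658 without replicate 1. RIPK3 against BimS in cDC1s gave 810 calls, and 489 without cDC1 BimS replicate 3.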
